A study of Homo sapiens with 18 samples.

Results

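The genes described here encode heterogeneous nuclear ribonucleoproteins (hnRNPs), poly(C)-binding proteins (PCBPs), SR proteins and a few tissue-linked regulators of splicing, as transcribed in MCF10A cells. They were chosen by symbol, namely names starting with HNRNP, PCBP1 to PCBP4, SRSF genes with a number, TRA2A, TRA2B, PTBP1 to PTBP3, RBFOX2, ESRP1, ESRP2, MBNL1, MBNL2 and QKI, with pseudogenes left out. The rule found 52 of the 19401 genes in the series, made up of 26 HNRNP, 4 PCBP and 11 SRSF names and 11 others, and 50 of the 52 were listed in all 3 tables. RNA from MCF10A, an immortalized but non-tumorigenic line of human breast epithelium, was sequenced in 18 samples without treatment, all grown with horse serum, insulin, EGF, hydrocortisone and cholera toxin. The groups were CBFB KO (3 samples) with its own WT (3), and RUNX1 KO1 (4) and RUNX1 KO2 (4) with a shared WT (4). The knockouts were made with CRISPR and grown from single cell colonies. RUNX1 KO1 and RUNX1 KO2 are taken here as 1 clone each and CBFB KO as 1 clone, though their titles name no clones. The effect of a deletion therefore cannot be told apart from that of its clone.

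hnRNPs coat newly made transcripts and often weaken the use of nearby splice sites, whereas SR proteins bind exons through RNA recognition motifs and recruit the splicing machinery. HNRNPK and the PCBPs share KH domains that bind stretches of cytosine, and besides splicing they act on mRNA stability and translation. HNRNPK is of interest in this study because its protein binds CBFB, the partner of the RUNX transcription factors.

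The values were the authors' means of normalized counts, 1 per gene and table, each averaged over the knockout libraries and their WT together. The CBFB table averaged 6 libraries, and the RUNX1 KO1 and RUNX1 KO2 tables averaged 8 each, of which the 4 WT libraries were the same. The tables used hold no value per library, and the authors' own columns of fold changes and p-values were not used, so no difference of a knockout from its WT, SD or p-value is given and every value below is a description of pooled libraries. The means summed to 20214423, 18050386 and 16467400 normalized counts over 18526, 18517 and 18117 genes in the CBFB, RUNX1 KO1 and RUNX1 KO2 tables. The basal markers KRT5, KRT17, TP63 and ITGB4 reached a mean of 100 in every table, and KRT14 did so in the CBFB and RUNX1 KO1 tables and was not listed in the RUNX1 KO2 table. All 6 epithelial markers reached this mean in every table. The summed means of the 4 endothelial markers lay between 3.86 and 5.83, and those of the 5 neuronal markers between 2.76 and 3.83. Of the 6 fibroblast markers, COL1A1 (236 to 305) and PDGFRA (466 to 633) reached 100, while the other 4 were under 10 or not listed. Of the 5 blood markers, CD14 was at 128 to 142 and the others were under 10 or not listed.

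Near-identical copies limit how far reads can be assigned to a single member, and 2 pairs of related genes show the range. HNRNPA1, the member with the highest mean, and HNRNPA1L2, a retrotransposed copy of it, differed at 15 of 960 aligned coding bases (98.4% identity) in the GENCODE release 29 transcripts. PCBP1, an intronless gene, and PCBP2 differed at 169 of 1050 aligned bases (83.9% identity), and 14 of their first 90 coding bases differed. These bases are shown with the differing ones in capitals, because they tell reads of these related genes apart.
PCBP1: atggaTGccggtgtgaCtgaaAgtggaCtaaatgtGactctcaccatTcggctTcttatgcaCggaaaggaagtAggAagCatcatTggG
PCBP2: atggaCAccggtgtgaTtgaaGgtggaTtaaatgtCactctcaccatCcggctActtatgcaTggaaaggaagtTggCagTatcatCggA

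Counted over windows of 75 bases of the principal transcript, 27.4% of HNRNPA1 also occurred in transcripts of other genes, 23 in number and led by the pseudogene HNRNPA1P48. For HNRNPA1L2 the share was 44.2%, and 35.1% of its windows were in HNRNPA1 itself. HNRNPA3 shared 43.3% of its windows, mainly with its pseudogene HNRNPA3P6, whereas HNRNPK shared 2.82% (13.3% with windows of 50 bases). For PCBP1 the shared 44.5% lay in its antisense gene PCBP1-AS1, and for PCBP2 63.0% occurred in other annotated genes. The largest share was that of HNRNPUL2-BSCL2 (98.1%), a read-through transcript that overlaps HNRNPUL2. SRSF1 came next with 90.1%, and 83.1% of its windows were in AC015813.2. In all, 17 of the 51 members with an annotated transcript shared over 10% of their windows, and 22 shared none. With windows of 50 bases, 18 shared over 10%. Genes outside the members were not counted in this way, so these numbers have no background. Windows were matched on either strand, and not all sharing was with copies. SRSF9 shared 37.5% with GATC, SRSF2 27.1% with MFSD11 and MBNL1 15.1% with its antisense gene MBNL1-AS1. How the authors' counting treated such reads is not stated, so the means of members with large shares are uncertain.

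The members were among the more abundant transcripts of the cells. Of the 51 members listed in each table, the number with a mean of 1000 or more was 43 (CBFB), 42 (RUNX1 KO1) and 41 (RUNX1 KO2), beside 24.7%, 20.9% and 19.5% of all listed genes. Their median mean was 4267, 3350 and 3170, against 244, 210 and 187 over all genes. Per length, as defined for the single genes, 32, 26 and 26 members reached a level of 100, beside 9.81%, 9.22% and 9.48% of all genes with a length. Together the members made up 1.71% of the normalized counts in the CBFB table, 1.52% in the RUNX1 KO1 table and 1.53% in the RUNX1 KO2 table.

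**Figure D1:**
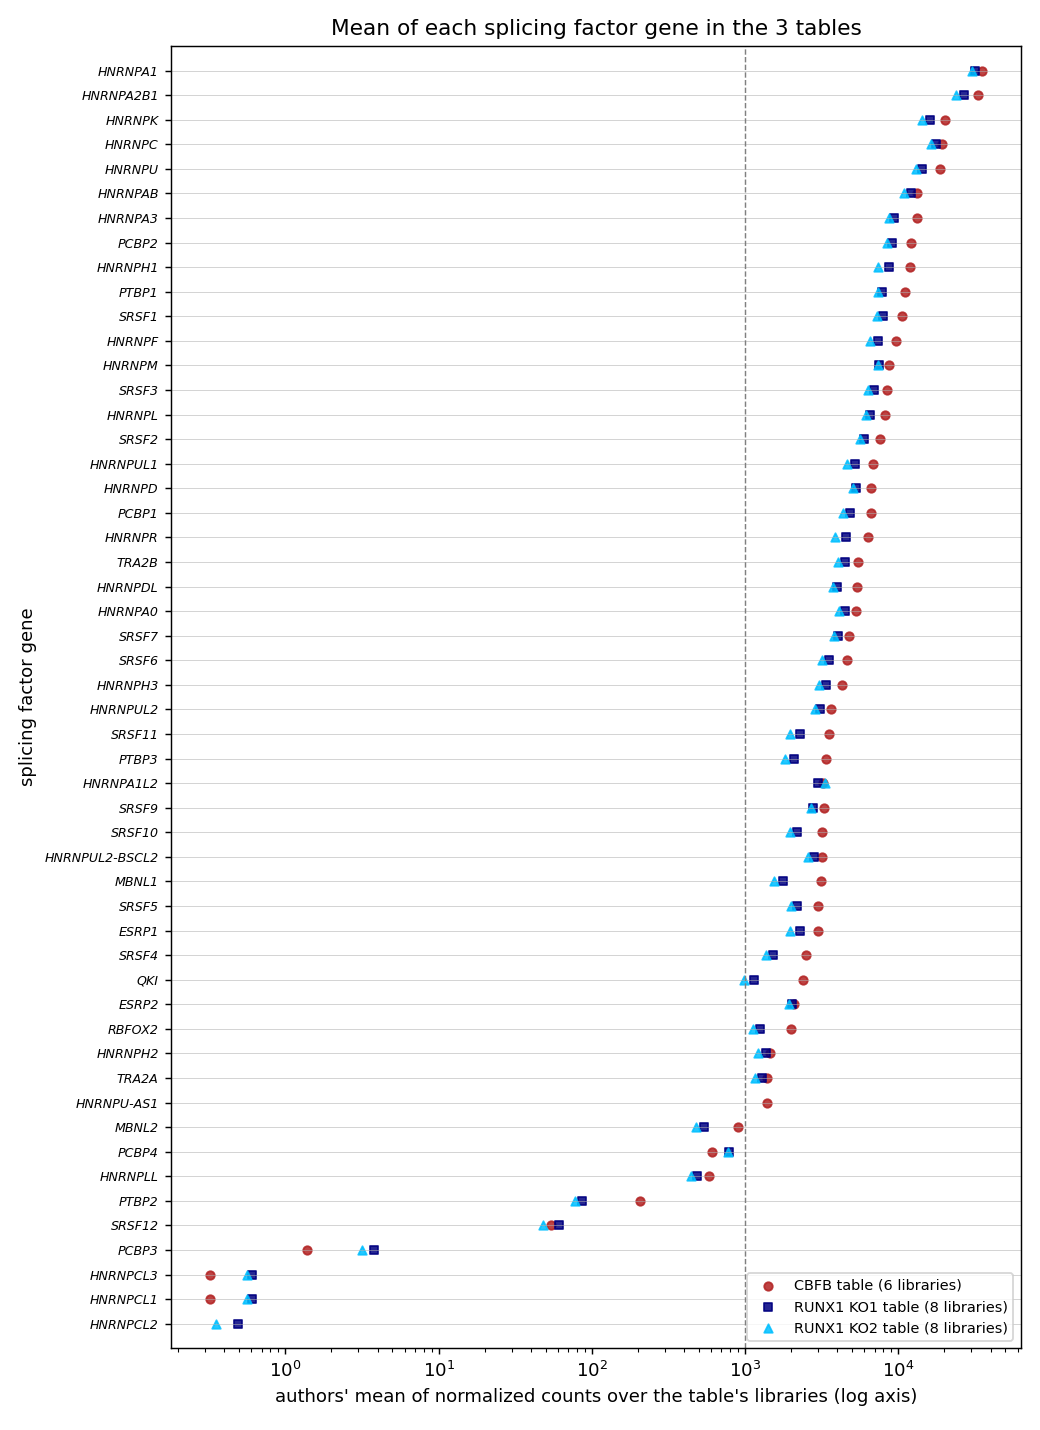
Authors' mean of normalized counts (x, log axis) of each of the 52 members (y) in the CBFB table (circles, 6 libraries), RUNX1 KO1 table (squares, 8) and RUNX1 KO2 table (triangles, 8), with no error because no value per library was used; the dashed line marks 1000. Most members lie to the right of the line, HNRNPA1 is the highest in every table, and PCBP3 and the HNRNPC-like genes are under 10.

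The core hnRNPs had the highest means, before division by length. HNRNPA1, which binds pre-mRNA and shuttles between nucleus and cytoplasm, had means of 35104, 31646 and 30096 in the CBFB, RUNX1 KO1 and RUNX1 KO2 tables, and HNRNPA2B1 had 33252, 26633 and 23947. HNRNPK (Entrez ID 3190) had means of 20247, 16087 and 14193, above those of at least 99.3% of the genes listed in each table. HNRNPC, which forms the core of hnRNP particles, had 19351, 17688 and 16370, and HNRNPU, a nuclear scaffold protein, had 18741, 14337 and 13035. All 5 were lowest in the RUNX1 KO2 table and highest in the CBFB table, as were the summed means of all genes.

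Between genes, levels were compared per length, as the mean divided by the kilobases of the longest annotated transcript and scaled so that all listed genes with a length add up to 1000000. The per-length level of HNRNPA1 was 1102, 1018 and 1108 in the CBFB, RUNX1 KO1 and RUNX1 KO2 tables. HNRNPAB, which has a short transcript of 1796 bases, followed with 960, 891 and 919. HNRNPK came next with a per-length level of 890, 725 and 732. These 3 genes kept this order in every table with the longest transcript. With the median transcript length HNRNPAB ranked 9, 8 and 8, and HNRNPK ranked 2 in each table. With the principal transcript HNRNPK ranked 7, 6 and 6.

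The next places per length were held by HNRNPA2B1 at 684, 562 and 578 and by HNRNPC at 556, 521 and 552. PCBP2, which binds poly(C) in mRNAs, had per-length levels of 511, 391 and 415, and PCBP1 had 489, 367 and 380. These 4 stood in the same order in every table. HNRNPM, a regulator of splicing, had 436, 384 and 435, and HNRNPF, which binds runs of guanine, had 456, 356 and 359. HNRNPM ranked below both PCBPs and HNRNPF in the CBFB table and above them in the RUNX1 KO2 table. SRSF1, an SR protein that also acts outside splicing, had 435, 337 and 356, and ranked 10 in the CBFB and RUNX1 KO1 tables and 11 in the RUNX1 KO2 table, where HNRNPA1L2 (367) stood above it. With no error on these values, neighbors in this order cannot be called different. With the principal transcript in place of the longest, HNRNPC led all members in each table (1231, 1152 and 1230), because its principal transcript has 1714 bases and its longest 4501.

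The genes that bind cytosine-rich RNA were led by HNRNPK on this scale. Of the summed per-length level of HNRNPK and the 4 PCBPs, HNRNPK took 46.4%, 47.6% and 46.5% in the CBFB, RUNX1 KO1 and RUNX1 KO2 tables. PCBP2 took 26.6%, 25.7% and 26.4%, and PCBP1 took 25.5%, 24.1% and 24.2%. PCBP2 and PCBP1 were within 2.2 percentage points of each other on this length alone. With the principal transcript PCBP2 (43.3%, 42% and 42.9%) stood above HNRNPK (35.7%, 36.9% and 35.8%) and PCBP1 (19.6%, 18.7% and 18.6%).

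PCBP4, a relative known as a target of p53, had means of 605, 787 and 775, which was 1.57%, 2.63% and 2.88% of the group's per-length level. PCBP3 had means of 1.39, 3.78 and 3.15 and at most 0.015% of it. The mean of PCBP1 was 6617, 4845 and 4385 and that of PCBP2 12158, 9077 and 8425. PCBP4 was the only PCBP with a mean over 100 that stood lower in the CBFB table than in both RUNX1 tables.

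In the A/B family, HNRNPA1 took 50.9%, 54.6% and 55.7% of the per-length level, HNRNPA2B1 31.6%, 30.1% and 29.1%, and HNRNPA3 13.8%, 11.7% and 11.6%. With the principal transcript HNRNPA2B1 led in the CBFB table (38.0% against 34.1%), and with coding length the pair was even there (39.1% against 39.2%). HNRNPA0, an intronless member, took 3.65%, 3.65% and 3.61%. HNRNPAB led HNRNPD, which binds AU-rich elements, and its relative HNRNPDL, with 73.1%, 76.0% and 75.1%. HNRNPD held 14.2%, 13.0% and 13.6% and HNRNPDL held 12.7%, 10.9% and 11.3%. HNRNPC stood at 92.1%, 91.7% and 90.6% beside its relative RALY, and HNRNPL at 95.0%, 94.8% and 94.9% beside HNRNPLL. A single member thus dominated in the C and L families, whereas the A/B family was spread over 3.

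HNRNPF took 46.5%, 45.8% and 46.0% of the F/H family, HNRNPH1 28.1%, 26.6% and 25.8%, and HNRNPH3 16.8%, 17.1% and 17.6%. HNRNPH2, whose coding sequence is 87.6% identical to that of HNRNPH1, took 8.69%, 10.6% and 10.5%. HNRNPUL1 held 47.5%, 46.5% and 45.7% of the U family, HNRNPU 35.3%, 34.7% and 35.2%, and HNRNPUL2 17.2%, 18.8% and 19.2%. HNRNPR took 35.7%, 34.7% and 33.8% beside SYNCRIP, also called hnRNP Q, but 64.5%, 63.5% and 62.5% with the median transcript length. The lead of HNRNPUL1 rested on the length used, since HNRNPU led with the principal transcript (51.1%, 50.5% and 51.0%). The lead of HNRNPF held with the principal transcript (38.1% against 35.0% for HNRNPH1 in the CBFB table). It gave way to HNRNPH1 in every table when means were not divided by length (35.6% against 43.4% in the CBFB table). The same held with the median transcript length (15.7% against 69.6% in the CBFB table). With coding length HNRNPH1 led in the CBFB table (39.2% against 36.5%) and the pair was even in the RUNX1 KO2 table (36.6% each).

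**Figure D2:**
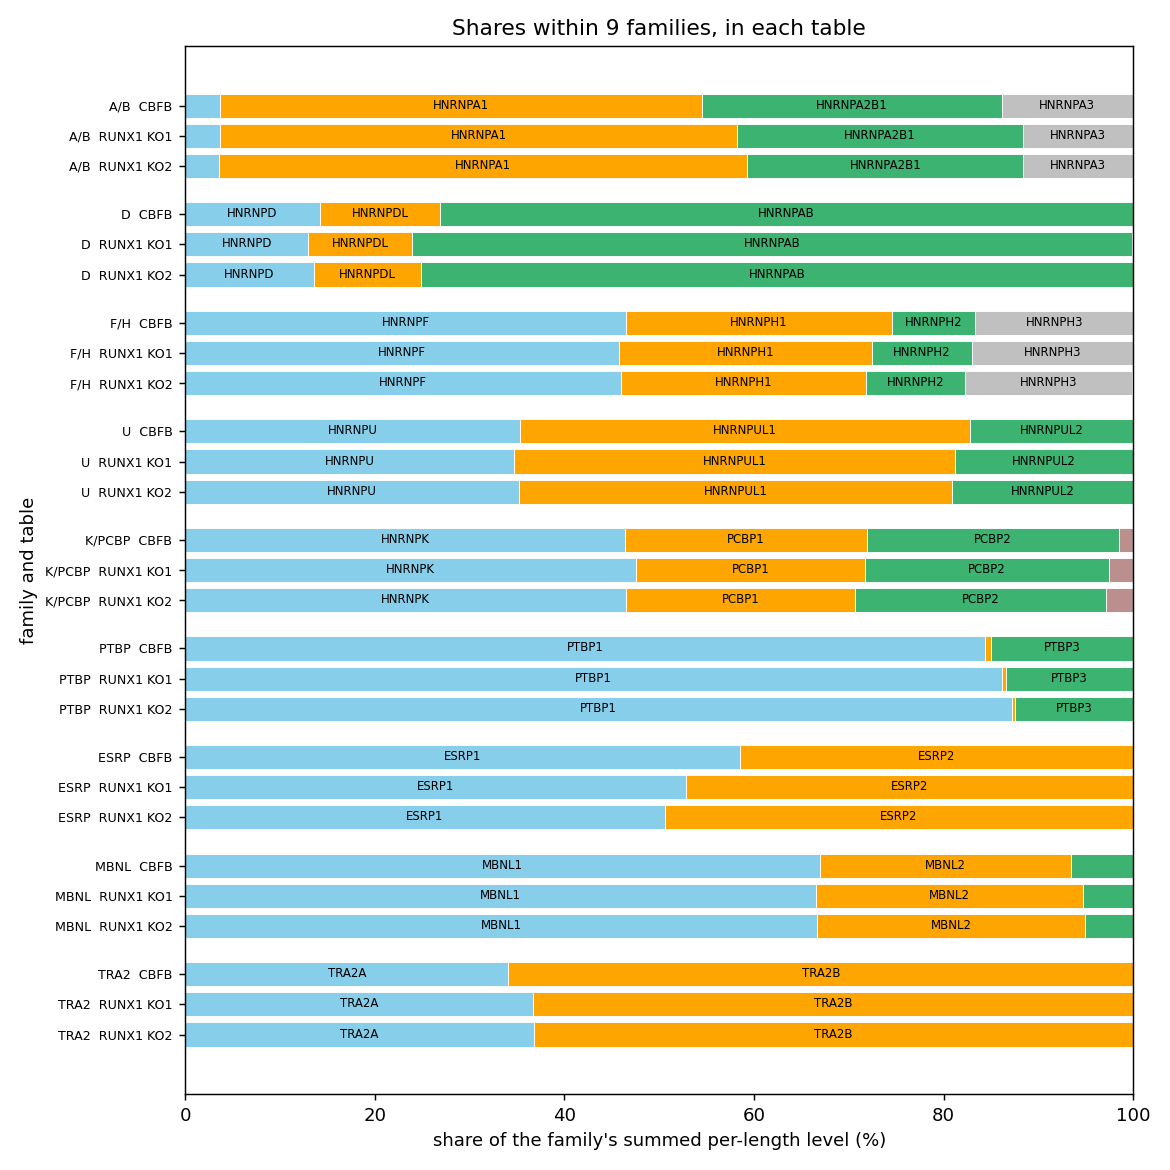
Share of the family's summed per-length level (x, %) held by each member of 9 families in each of the 3 tables (y). Segments under 8% carry no name; in the K/PCBP family the last, brown segment is PCBP4. Shares move by a few points between tables, and the widest visible move is that of ESRP1, from 50.6% to 58.5%.

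Among the SR proteins, SRSF1 held the largest share of the per-length level of the 11 listed genes, with 21.5%, 20.9% and 20.8% in the CBFB, RUNX1 KO1 and RUNX1 KO2 tables. The mean behind this share is uncertain, because 90.1% of the 75-base windows of SRSF1 also occurred in other genes. SRSF2, which recognizes exonic enhancers, held 16.8%, 17.1% and 17.3%, SRSF9 12.3%, 13.3% and 14.0%, and SRSF3, the smallest of these proteins, 12.7%, 13.4% and 13.3%. SRSF7 held 10.6%, 11.6% and 11.9%. The order of SRSF3 and SRSF9 differed between tables, and with coding length SRSF3 held the largest share (24.3%, 25.5% and 25.4%). The other members, SRSF4, SRSF5, SRSF6, SRSF10 and SRSF11, held between 1.5% and 6.86%, and SRSF12 between 0.0954% and 0.140%. TRA2B, an SR-like regulator of exon inclusion, held 65.9%, 63.3% and 63.2% beside TRA2A with 34.1%, 36.7% and 36.8%. SRSF8 was not listed in any table.

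The polypyrimidine tract-binding proteins, which repress exons, are known from different cell types. PTBP1, the form of non-neuronal cells, had means of 11075, 7788 and 7382 and held 84.4%, 86.2% and 87.2% of the family's per-length level. PTBP3 had means of 3378, 2081 and 1814 and held 15%, 13.4% and 12.5%. PTBP2, the form known from neurons, had means of 206, 86.9 and 77.4, at most 0.608% of the family. On coding length the order was the same and PTBP3 took 20.4% to 24%.

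The epithelial splicing regulators ESRP1 and ESRP2 were both present. ESRP1 had means of 2971, 2289 and 1973 in the CBFB, RUNX1 KO1 and RUNX1 KO2 tables, and ESRP2 had 2099, 2037 and 1923. ESRP1 held 58.5%, 52.8% and 50.6% of their per-length level, so they were close to even in the RUNX1 KO2 table. With the median transcript length ESRP2 stood above ESRP1 (74.9%, 79.0% and 80.5%), which shows that the order of the pair depends on the length used.

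Of the muscleblind-like proteins, which promote differentiated splicing patterns, MBNL1 had means of 3142, 1768 and 1552 and held 67%, 66.5% and 66.7% of the family. MBNL2 had means of 893, 542 and 475 and held 26.4%, 28.2% and 28.2%. Both stood higher in the CBFB table, while the split between them moved by at most 1.8 percentage points. QKI, a KH-domain protein known from glia and from the epithelial-mesenchymal transition, had means of 2399, 1146 and 980. RBFOX2, the RBFOX form found outside neurons, had means of 2006, 1256 and 1118 and held at least 99.5% of its family.

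The lowest members were at or near 0. HNRNPCL1 and HNRNPCL3, copies of HNRNPC with 95.4% coding identity to each other, had the same mean in each table, 0.322, 0.603 and 0.565. HNRNPCL2 had 0.493 and 0.352 in the RUNX1 KO1 and RUNX1 KO2 tables and was not listed in the CBFB table. HNRNPCL1 shared 94.7% of its aligned coding bases with HNRNPC, whose mean was 16370 or more in every table, so reads of HNRNPC and of its copies may not have been separable. SRSF12, a divergent SR protein, had means of 53.8, 61.3 and 48.1. HNRNPU-AS1, a long noncoding RNA named for its position opposite HNRNPU, had a mean of 1393 in the CBFB table and was not listed in the others, and whether the counting used strand is not stated.

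The 3 tables were then set against each other, to see which members stood apart from the bulk of genes. The ratio of the means of 2 tables was divided by the median ratio over all genes that reached a mean of 100 in both, and a centred log2 ratio of 0.322 or more in either direction was counted as a difference. The tables were normalized separately, and the CBFB and RUNX1 tables also differ in the experiment, the WT libraries and the gene deleted, which cannot be told apart here. The RUNX1 KO1 and RUNX1 KO2 tables share their WT libraries, so a difference between these clones appears diluted. Of the 52 members, 45 met the minimum in each pair, and HNRNPU-AS1, PTBP2, SRSF12, PCBP3, HNRNPCL1, HNRNPCL2 and HNRNPCL3 did not.

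Between the RUNX1 tables no member passed this limit. Of 45 members, 0 were higher in the RUNX1 KO2 table and 0 lower, beside 5.36% higher and 0.423% lower among all 10174 genes. The centred log2 ratios of the members ran from -0.13 to 0.25 with a median of -0.03. HNRNPA1L2 was the farthest on the higher side at 0.25, from means of 3321 in the RUNX1 KO2 table and 3005 in the RUNX1 KO1 table, followed by HNRNPM at 0.09, PCBP4 at 0.08, SRSF9 at 0.07 and HNRNPD at 0.04. On the lower side were HNRNPR and SRSF11 at -0.13, HNRNPH1 and QKI at -0.12 and ESRP1 at -0.11. HNRNPK stood at -0.08. HNRNPA1L2 was the only member whose mean was higher in the RUNX1 KO2 table before centring.

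Between the CBFB and RUNX1 KO1 tables, 7 of 45 members were higher in the CBFB table and 1 was lower, beside 20.0% and 16.5% of all 10531 genes. Against the RUNX1 KO2 table, 10 members were higher and 2 lower, beside 25.0% and 25.4% of all 10064 genes. The higher counts were thus 15.6% and 22.2% of the members, near or under the background at this limit, and the lower counts were 2.22% and 4.44%, under it. The median of the members was 0.12 and 0.16, where the median of all genes is 0 by construction. Of the 45 members, 35 lay above 0 in the first pair and 33 in the second, which share the CBFB libraries. When genes were centred by length class, as described below, 29 and 28 lay above 0.

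QKI was the farthest of the 45 members that met the minimum. Its centred log2 ratio was 0.84 over the RUNX1 KO1 table and 0.95 over the RUNX1 KO2 table, above 97.7% and 97.6% of all genes. MBNL1 followed at 0.60 and 0.67, MBNL2 at 0.49 and 0.57, SRSF4 at 0.48 and 0.51 and PTBP3 at 0.47 and 0.55. RBFOX2 stood at 0.45 and 0.50 and SRSF11 at 0.39 and 0.50. These 7 passed 0.322 against both RUNX1 tables, and HNRNPR (0.37), SRSF10 (0.35) and HNRNPH1 (0.33) only against the RUNX1 KO2 table. PTBP2 stood farther than QKI, at 1.01 and 1.06. It was left out because its RUNX1 KO1 and RUNX1 KO2 means of 86.9 and 77.4 were under the minimum of 100. MBNL3, which is no member but completes its family, stood at 0.90 and 1.03. All 3 muscleblind-like genes were thus higher in the CBFB table before centring by length class, which is not given for MBNL3.

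On the other side, PCBP4 was lower in the CBFB table at -0.61 and -0.70, below all but 3.72% and 6.96% of genes. HNRNPA1L2 stood at -0.12 and -0.38 and passed the limit against the RUNX1 KO2 table alone. ESRP2 stood at -0.19 and -0.22, beside 0.15 and 0.24 for ESRP1, all within 0.322 of 0. Of the 10 and 12 members below 0, the others farthest from it were HNRNPH2 at -0.14 and TRA2A at -0.13 over the RUNX1 KO1 table, and HNRNPA1 at -0.12 and HNRNPM at -0.11 over the RUNX1 KO2 table. HNRNPK (0.10 and 0.17), PCBP1 (0.22 and 0.25) and PCBP2 (0.19 and 0.18) were within 0.322 of 0 in both pairs.

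**Figure D3:**
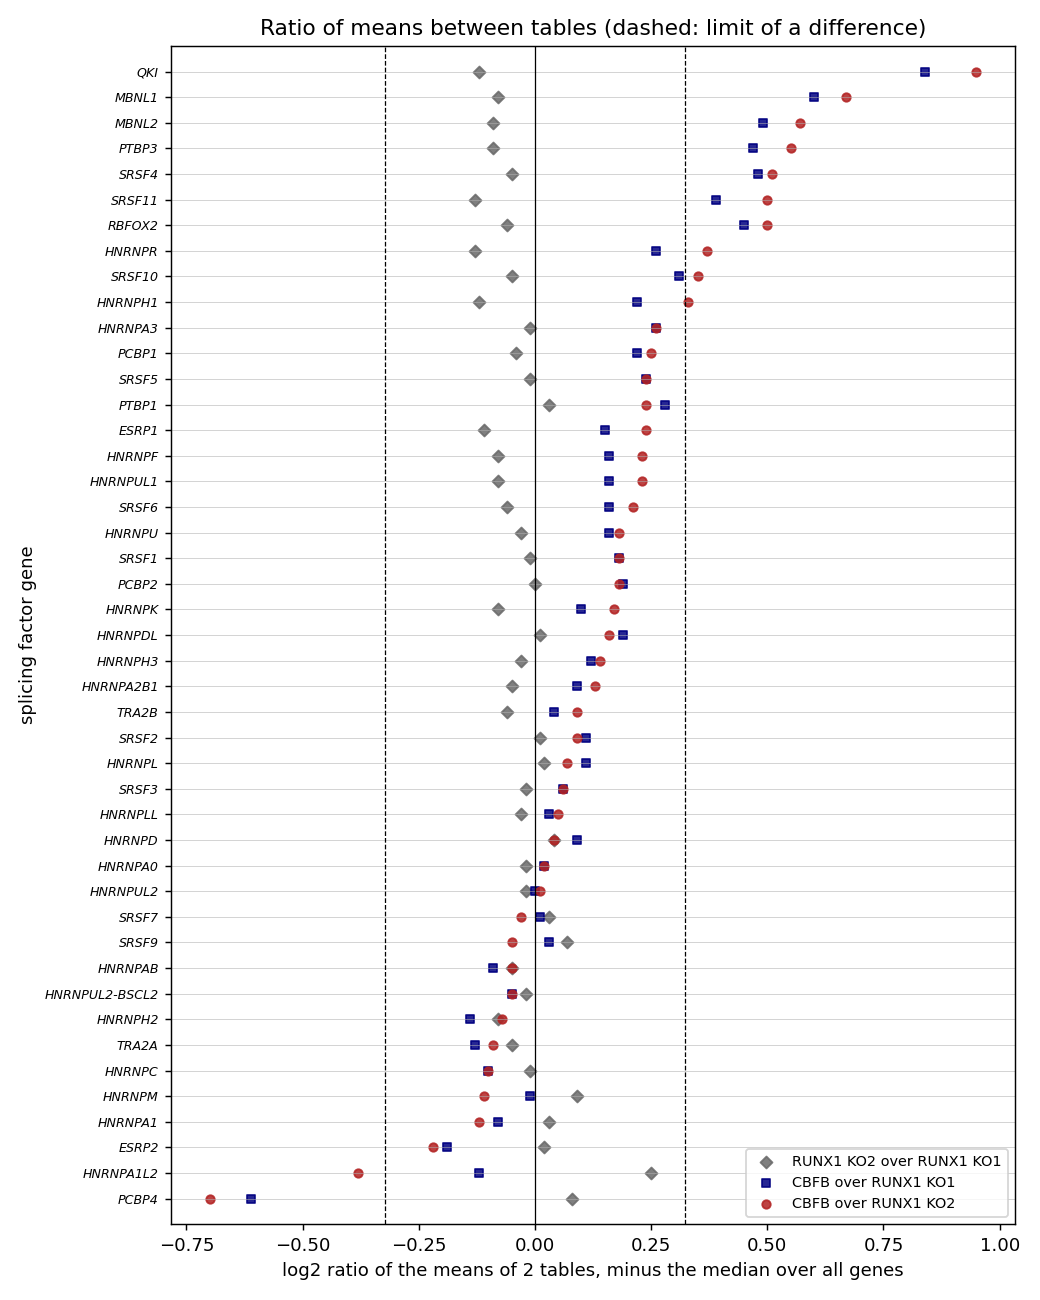
Centred log2 ratio of the means of 2 tables (x) for the 45 members that reached a mean of 100 in every table (y), as diamonds for RUNX1 KO2 over RUNX1 KO1, squares for CBFB over RUNX1 KO1 and circles for CBFB over RUNX1 KO2; dashed lines mark 0.322 on either side. The diamonds lie between -0.13 and 0.25, while QKI (0.84 and 0.95) and PCBP4 (-0.61 and -0.70) are the outermost squares and circles.

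Transcript length moved with these ratios over all genes. Spearman's correlation of the centred ratio with the length of the longest transcript was 0.55 for CBFB over RUNX1 KO1 (10446 genes), 0.56 for CBFB over RUNX1 KO2 (9983 genes) and -0.52 for RUNX1 KO2 over RUNX1 KO1 (10094 genes), given as a description across genes that share libraries. Within the 45 members it was 0.51, 0.53 and -0.38. Of 4 classes of equal size by length, the class of the longest transcripts had a median ratio over the RUNX1 KO2 table of 0.37 over all genes and 0.37 over the 11 members in it. In the class of the shortest, it was -0.37 over all genes and -0.06 over the 6 members in it.

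The longest transcript of QKI has 9463 bases, that of SRSF4 8128, that of PTBP3 7995, that of RBFOX2 6932 and that of MBNL1 6458. When each gene was instead centred on the median of its own length class, 3 members were higher and 1 lower over the RUNX1 KO1 table, beside 13.5% and 13.9% of all genes, and 4 higher and 2 lower over the RUNX1 KO2 table, beside 18.4% and 20.7%. QKI then stood at 0.56 and 0.58, MBNL2 at 0.39 and 0.44 and PCBP4 at -0.56 and -0.63. SRSF11 stood at 0.29 and 0.37 and HNRNPA0 at -0.26 and -0.34, both past the limit over the RUNX1 KO2 table alone, which for HNRNPA0 was not so before (0.02). Under the limit were then MBNL1 at 0.32 and 0.31, SRSF4 at 0.20 and 0.15, PTBP3 at 0.19 in both pairs and RBFOX2 at 0.17 and 0.13. PCBP1, with a transcript of 1750 bases, stood at 0.46 and 0.61 in place of 0.22 and 0.25, and so passed the limit in both pairs. The other calls over the RUNX1 KO2 table were lost too, with HNRNPR at 0.00, SRSF10 at 0.22, HNRNPH1 at -0.03 and HNRNPA1L2 at -0.01. Between the RUNX1 tables HNRNPA1L2 moved from 0.25 to 0.10, HNRNPR to -0.05 and HNRNPH1 and QKI to -0.04, and the lowest became HNRNPH2 at -0.23, TRA2A at -0.20, HNRNPAB at -0.19 and PCBP1 at -0.18, with 0 members past the limit. The part of length, library preparation or RNA quality in these ratios was not tested.

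**Figure D4:**
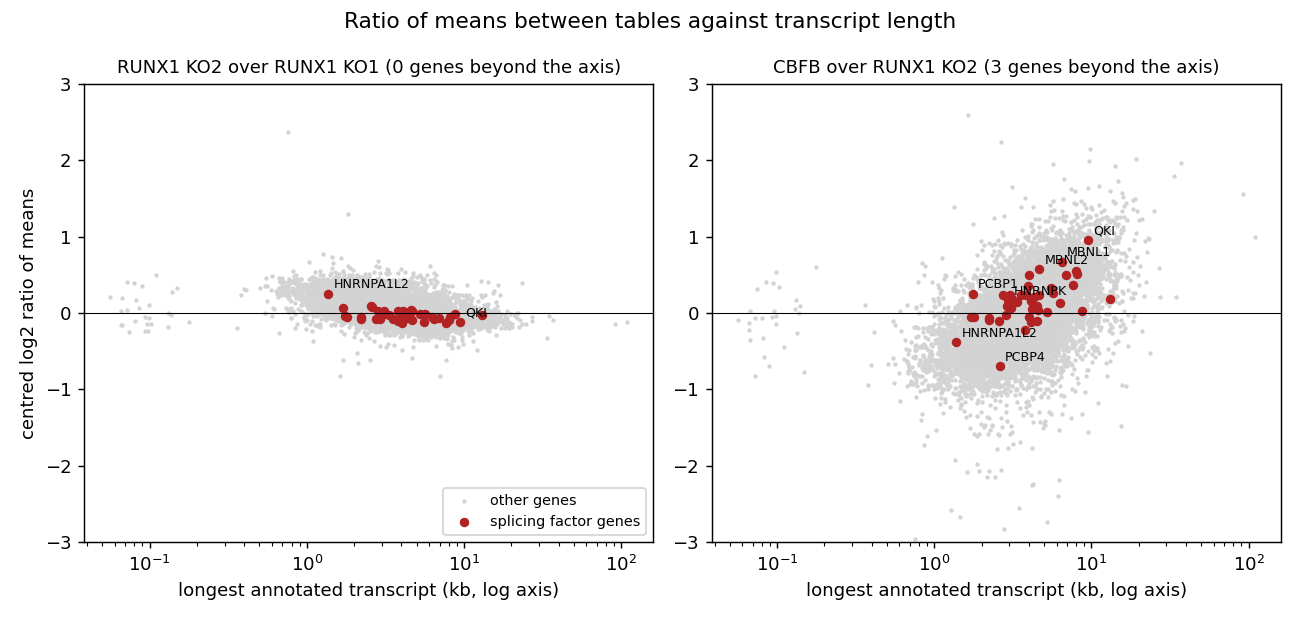
Centred log2 ratio of means (y) against the longest annotated transcript (x, kb, log axis) for all genes that reached a mean of 100 in both tables (grey) and the 45 members (red), for RUNX1 KO2 over RUNX1 KO1 (left) and CBFB over RUNX1 KO2 (right). The cloud rises with length on the right and falls slightly on the left, QKI lies at the long, high end on the right, and PCBP4 lies below 0 at middling length.

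Other genes of splicing and the partners of HNRNPK were read from a list of 55, of which 45 could be compared in each pair. Of these, 0 were higher and 0 lower between the RUNX1 tables, beside 5.36% and 0.423% of all genes. Set against the RUNX1 KO1 table, 11 were higher and 2 lower in the CBFB table, and 16 were higher and 6 lower against the RUNX1 KO2 table, with medians of 0.12 and 0.19. These are 24.4% and 4.44% of the list beside 20.0% and 16.5% of all genes, and 35.6% and 13.3% beside 25.0% and 25.4%. The ratios of this list are not centred by length class, and the part of length in them was not tested. The list holds the deleted genes, of which RUNX1 (0.57 and 0.59) is among the higher and CBFB (-0.47 and -0.40) among the lower. SRRM2, a large protein of nuclear speckles, stood at 0.78 and 0.83, PRPF8, the central spliceosome protein, at 0.60 and 0.62, and the kinases of SR proteins CLK1 and CLK4 at 0.59 and 0.61 and at 0.62 and 0.61. SNRPC, a small U1 protein, was lower at -0.36 and -0.68. Lower over the RUNX1 KO2 table alone were SNRPB and SNRPD1 (-0.46 each), SNRNP70 (-0.41) and RALY (-0.37). EIF4B, a translation initiation factor, stood at -0.02 in both pairs. The deleted genes were measurable but check no label, since each mean pools knockout and WT, with CBFB at 897, 1058 and 931 and RUNX1 at 1606, 922 and 839 in the CBFB, RUNX1 KO1 and RUNX1 KO2 tables.

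RUNX factors bind the sequence TGTGGT, which was searched on both strands in RefSeq promoter windows (GRCh38.p14) of 250 bases before to 50 after each start. Windows were found for 42 of the 52 members, 61 windows in all, and 2 of the 61 (3.28%) held the motif, beside 13.1% of all 35116 windows. They belonged to HNRNPA0 and SRSF6, with the motif beginning at base 7 and base 26 after the start. The longer form TGTGGTT, which contains the first, was in 0 of the 61 windows and in 4.27% of all. The members' windows also had a median GC content of 65.0% and 29 CpG dinucleotides, against 58.7% and 14 over all windows, so their base composition differs from that of the background. Binding was not measured in the data used here.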

How the data were processed

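RNA from 18 MCF10A samples in 5 groups, taken from the sample labels, was sequenced; the labels name a TruSeq mRNA kit and the study's methods removal of ribosomal RNA. Per the labels' processing notes, the authors used Trimmomatic, STAR, the hg19 build and DESeq2. The read counter and annotation are not given in the sources used here. The authors' tables used were 3, each comparing a knockout with its WT, and matrices that the labels also name were not used here. Each table holds the mean of normalized counts over its libraries, a deposited signal, and the authors' own log2 fold changes, SEs, test statistics and p-values, which were not used. In these tables the number of columns per sample was 0, so neither reads per library nor precision is given.

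Members and lists were chosen with earlier results of these data known. The genes named were HNRNPK and PCBP1 to PCBP4, the 10 highest per length, members with over 10% of a family, those under 100 or absent in a table, and the 5 farthest on each side in each pair. Names such as PCBP1, PTBP1 and ESRP1 were kept although they end in P and a number, and HNRNPCL3 was listed as LOC649330 in 1 table. Genes were joined by Entrez ID. Lengths came from GENCODE release 29 (GRCh38) for at least 97.2% of listed genes; since the build differs, no coordinates are given. The principal transcript is that of the APPRIS tag. Ratios of means were checked on simulated data. Python 3.11.15, pandas 2.3.3, numpy 2.4.6, Biopython 1.88 and matplotlib 3.10.9 were used. No test was made. Alternatives were other lengths, scalings, minimum means, folds and motifs. Of the basal marker list, 1 gene is not reported here.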

Additional observations from a re-analysis of the deposited data

How the results depend on the processing

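Of 67 counts recomputed under alternatives, 52 stayed within 1.5 times the count reported, among them every count of members with a per-length level of at least 100 (26 to 34), and the number of families keeping their leading member (10 to 12 of 14). The counts of members over a mean of 1000, 41 to 43 of 51, could not move by 1.5 times under lower limits. The other 15 moved. At a fold of 1.1, 1 member (2.22%) was higher in the RUNX1 KO2 than in the RUNX1 KO1 table, beside 22.1% of all genes. At this fold, 22 (48.9%) were higher and 2 (4.44%) lower in the CBFB than in the RUNX1 KO1 table, beside 35.2% and 33.9%. Also at 1.1, 24 (53.3%) were higher in the CBFB than in the RUNX1 KO2 table, beside 38.8%. At a fold of 1.5, 2 (4.44%) were higher in each CBFB pair, beside 6.70% and 10.4% of all genes. At that fold 1 (2.22%) was lower over the RUNX1 KO2 table, beside 11.4%. With a minimum mean of 10, 2 (4.26%) were lower over the RUNX1 KO1 table, beside 19.3%. With no minimum 1 (1.96%) was lower between the RUNX1 tables, beside 6.68%, and 5 (10.0%) in each CBFB pair, beside 24.0% and 30.3%. The additions were members with means under 100. Scaled by the sums of the means, 11 (24.4%) were higher over the RUNX1 KO1 table, beside 24.9%. Centred within 4 classes of length, chosen after seeing the data, 3 (6.67%) and 4 (8.89%) were higher, beside 13.5% and 18.4%. TGTGGTT was in 0 of the members' promoter windows, beside 4.27% of all windows. Where it is not given by the setting itself, the cause was not tested.

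No paired analysis was possible because the 3 tables used hold no value per library, and for the same reason the alternatives that leave out a replicate were not run. Coding length came from GENCODE because no protein table was used, and the planned description of proteins was not run. Lengths of principal transcripts were also chosen after seeing the data.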
